A study of Mus musculus with 12 samples.

Results

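The 57 genes described here encode centromere proteins (Cenp) and kinesins (Kif), out of 18820 genes that had a microarray probe set of their own. A gene was taken as a member when its symbol began with Cenp followed by a letter, or with Kif followed by a number or c, and when its probe set carried that symbol alone. Where a gene had several such probe sets, as 7 members did, the one with the highest mean signal over all arrays was used. From what the proteins are known to do, 27 members were placed with cell division (15 centromere proteins and 12 kinesins, called mitotic members below), 16 were placed with cargo movement (transport kinesins), and 3 centromere proteins and 11 kinesins were kept apart because neither role describes them or because the role is less well settled. Another 6 symbols of the same kind (Kifc1, Kif3c, Cenpo, Cenpk, Kif20a and Cenpu) were read only by probe sets shared with other genes and have no value.

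Total RNA came from hind limb skeletal muscle and from heart of C57BL/6 mice aged 11 days. The mice were either wild type (Tk2+/+) or lacked thymidine kinase 2 throughout the body (Tk2-/-), the mitochondrial enzyme that phosphorylates thymidine and deoxycytidine for mitochondrial DNA synthesis. Each of the 4 groups (Tk2+/+ muscle, Tk2-/- muscle, Tk2+/+ heart and Tk2-/- heart) held 3 arrays, 12 in all, and both organs are mixtures of muscle cells, connective tissue, vessel and blood cells. Signals below are the deposited intensities on a linear scale, in arbitrary units that can be compared between arrays for 1 gene but not between genes. Changes are log2 fold changes of Tk2-/- over Tk2+/+ computed on log2(signal + 16), which understates the change of genes with signals near 16 or below. A member was called changed when its p-value, adjusted over all 18820 genes, was under 0.05.

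At each cell division the kinetochore, a protein assembly built on the centromere, ties chromosomes to the spindle. The histone variant Cenpa marks the place, Cenpc1, Cenpn, Cenpt and other inner kinetochore proteins bind around it, and Cenpe and Cenpf join the outer layer as mitosis begins. Mitotic kinesins push spindle poles apart, move chromosomes, shorten microtubule ends or organise the midzone where the daughter cells separate. Transport kinesins such as Kif5b, Kif1b and the Kif3a-Kif3b pair use the same kind of motor to carry mitochondria, vesicles and other cargo along microtubules in cells that need not divide, and mature muscle fibres and, after the first days of life, most cardiomyocytes have left the cell cycle.

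The tissue labels matched their markers. The summed signal of 10 skeletal fibre genes was 46826 to 62776 on the muscle arrays and 4085 to 6897 on the heart arrays, and that of 9 cardiomyocyte genes was 34716 to 49613 in heart and 1778 to 2276 in muscle. The Tk2 probe set itself read 62.9, 68.5 and 63.1 in Tk2+/+ muscle and 64.7, 44.1 and 48.7 in Tk2-/- muscle, so 1 knockout array lay inside the wild-type range, whereas in heart it read 70.2 to 81.8 and 30.1 to 46.2 with no overlap. No source used here says whether the probe set reads the deleted exons. The Tk2-/- heart arrays were lower as a whole, with a mean signal of 147 to 168 against 227 to 243 in Tk2+/+ heart, and the median log2 fold change of all genes was -0.28 in heart and -0.02 in muscle. Heart results are therefore given as deposited and again after quantile normalization within each tissue, which sets the distributions of the 6 arrays of a tissue equal and brings the heart median to 0.00.

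In skeletal muscle, 18 of the 27 mitotic members were lower in Tk2-/- mice and 0 were higher, where 10.9% of all genes tested were called lower and 11.6% higher. Members called lower were 10 of the 15 centromere proteins and 8 of the 12 mitotic kinesins. Their median log2 fold change, all 27 included, was -0.63. At an unadjusted p under 0.05, limma likewise gave 18 lower and 0 higher, and after quantile normalization within the tissue 19 lower and 2 higher (Cenpq and Cenps). The methods' t-test on the deposited values does not share the spread between genes. It gave 18 lower and 1 higher at an unadjusted p under 0.05. After Benjamini-Hochberg adjustment it called 0 mitotic members lower, and 294 of the 18820 genes. Among the 16 transport kinesins 0 were called lower and 2 higher, with a median of 0.03. By limma at an unadjusted p under 0.05, 2 (Kif3b and Kifc3) were lower and 4 (Kif13a, Kif13b, Kif1b and Kif1c) higher. In 18 mitotic members the 3 Tk2-/- arrays all lay below the 3 Tk2+/+ arrays, as did 18.8% of all genes.

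Kif11, the motor that slides spindle poles apart, had the largest fall of the mitotic members in muscle. Its signals were 130, 85.5 and 65.6 in Tk2+/+ muscle and 16.1, 31.6 and 20.4 in Tk2-/- muscle, a mean of 93.6 ± 32.8 against 22.7 ± 8.0 (SD, n = 3). The lowest wild-type array was above the highest knockout array, and the log2 fold change was -1.48 (SE 0.22, adjusted p = 0.000202). Kif23, which bundles midzone microtubules for cytokinesis, read 118, 80.5 and 60.9 against 20.8, 28.0 and 19.5 (log2 fold change -1.37, SE 0.18, adjusted p = 6.4e-05), again without overlap. Kif18b, which acts on the plus ends of astral microtubules, read 70.0, 52.3 and 41.7 against 12.5, 21.4 and 10.1 and fell by 1.20 on the log2 scale. Kif15, which works beside Kif11 on spindle microtubules, and Kif22, which moves chromosome arms, fell by 0.96 and 0.83, and the microtubule depolymerase Kif2c fell by 0.70. The chromokinesin Kif4 and the cytokinesis kinesin Kif20b fell by 0.75 and 0.54. The values of the 4 mitotic kinesins that were not called were -0.25 for Kif18a, -0.24 for Kif14, -0.11 for Kifc5b and -0.08 for Kif2b, and Kifc5b is a near copy of Kifc1 whose reads the array may not separate.

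Of the centromere proteins in muscle, Cenpa itself had the largest fall. It read 128, 106 and 83.6 in Tk2+/+ muscle and 36.7, 41.9 and 26.6 in Tk2-/- muscle, so that the knockout mean was 33.1% of the wild-type mean, and the log2 fold change was -1.25 (SE 0.17, adjusted p = 6.63e-05). Cenpf, a large protein of the outer kinetochore that accumulates in G2, read 51.5, 33.3 and 29.7 against 5.43, 11.5 and 7.94 (log2 fold change -1.14, SE 0.22, adjusted p = 0.0014). The groups did not overlap for either gene. Cenpe, the kinetochore motor that brings chromosomes to the metaphase plate, fell by 0.95, as did Cenpn, which reads the Cenpa nucleosome, while Cenpm, a partner of Cenpi in the inner kinetochore, fell by 1.13. Cenpi, Cenpt, Cenpc1, Cenpl and Cenpw fell by 0.68, 0.63, 0.60, 0.42 and 0.32, and Cenpw stood at the threshold (adjusted p = 0.0496). Cenpp, Cenpx, Cenph, Cenps and Cenpq were not called, with values from -0.24 for Cenpp to 0.19 for Cenpq.

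**Figure D1:**
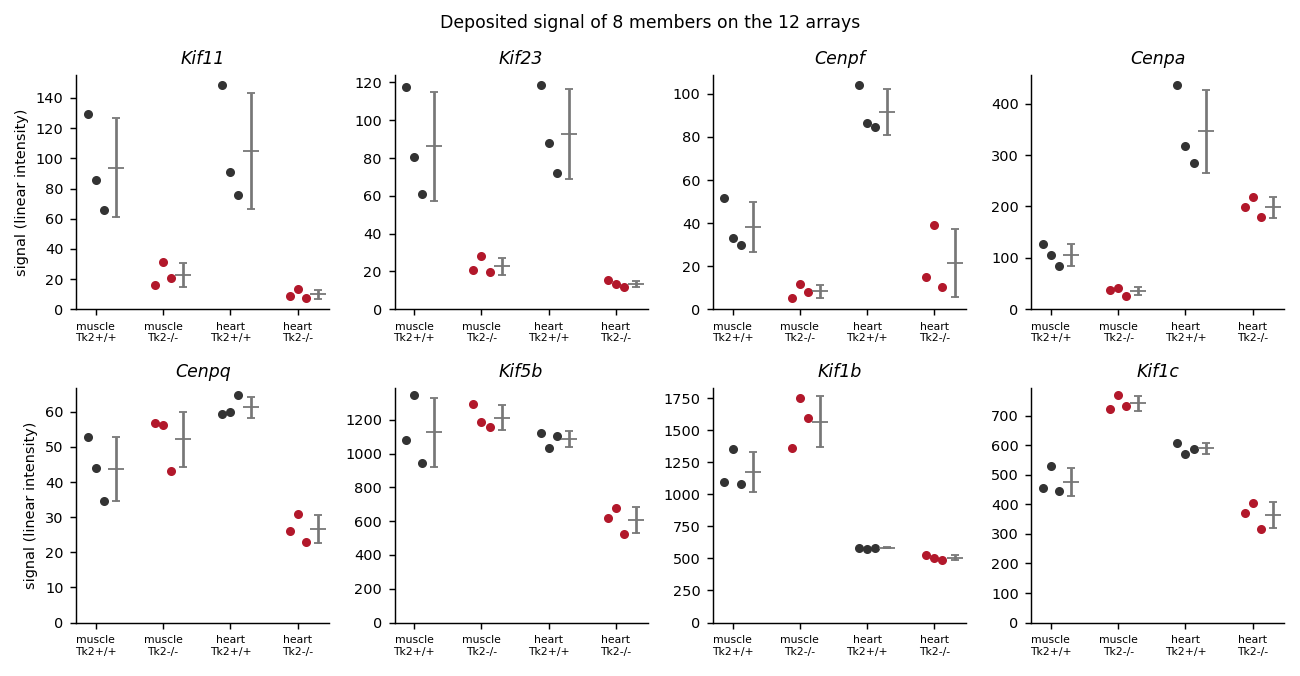
Signal (linear intensity, arbitrary units, each axis from 0) of 8 members on each of the 12 arrays, with wild-type arrays in black, Tk2-/- arrays in red, and the mean ± SD of 3 arrays in grey beside them. Kif11, Kif23, Cenpf and Cenpa lay lower in Tk2-/- than in Tk2+/+ arrays of both tissues without overlap, Cenpq only in heart, and Kif1c lay higher in muscle and lower in heart.

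Promoters of mitotic genes often carry a cell cycle homology region (CHR, letters TTTGAA), at which the DREAM and MuvB complexes act, and CCAAT boxes bound by NF-Y. RefSeq promoter windows (GRCm38.p6, 250 bases before the start and 50 after) were held for 49 of the 57 members, and both strands were searched. Kif23, Kif18b, Cenpf and Kif11, whose muscle and heart falls are described here, are shown with Kif1c, a transport kinesin whose window held none of the motifs, each from 120 bases before the start to 30 from it, read 5′ to 3′ on the gene's strand. Capitals mark the CHR (TTTGAA, or TTCAAA when it lies on the other strand) and the CCAAT box (CCAAT or ATTGG). The genes were chosen after the motifs were known.
Kif23 (chr9:61946770-61946919, minus strand): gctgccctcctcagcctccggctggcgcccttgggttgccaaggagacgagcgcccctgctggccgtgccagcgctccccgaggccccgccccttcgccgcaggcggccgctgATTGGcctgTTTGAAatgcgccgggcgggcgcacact
Kif18b (chr11:102925095-102925244, minus strand): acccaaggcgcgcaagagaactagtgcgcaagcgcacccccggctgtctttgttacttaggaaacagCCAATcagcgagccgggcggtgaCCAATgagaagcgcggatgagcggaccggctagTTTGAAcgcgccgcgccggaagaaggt
Cenpf (chr1:189688057-189688206, minus strand): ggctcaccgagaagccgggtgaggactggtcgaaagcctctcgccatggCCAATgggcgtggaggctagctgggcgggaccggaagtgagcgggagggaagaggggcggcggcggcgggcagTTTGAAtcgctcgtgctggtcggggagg
Kif11 (chr19:37376262-37376411, plus strand): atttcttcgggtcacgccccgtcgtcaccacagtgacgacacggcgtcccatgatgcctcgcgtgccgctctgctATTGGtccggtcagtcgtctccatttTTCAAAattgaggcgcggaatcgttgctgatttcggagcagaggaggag
Kif1c (chr11:70700428-70700577, plus strand): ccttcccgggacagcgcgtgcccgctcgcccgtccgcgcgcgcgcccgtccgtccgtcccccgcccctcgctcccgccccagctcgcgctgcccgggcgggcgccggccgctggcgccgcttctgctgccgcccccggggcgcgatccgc

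The CHR letters stood in the windows of 15 of the 27 mitotic members (55.6%), of 1 of the 10 transport kinesins with a window (10%), and of 17.3% of the 14749 tested genes with a window. By class they were present in 10 of the 12 mitotic kinesins and in 5 of the 15 centromere proteins (Cenpa, Cenpf, Cenpl, Cenpn and Cenpw). Within 50 bases of the start they were found in 12 mitotic members (44.4%) against 4.51% of all genes. In Kif23, Kif18b and Cenpf the motif's first base lay 2 or 3 bases past the start, and in Kif11 and Kif15 it lay 19 bases before it. CCAAT boxes were present in 20 mitotic members (74.1%), in 3 of the 10 transport kinesins and in 41.9% of all genes, and the E2F letters TTTCCCGC or TTTGGCGC in 5 mitotic members (18.5%), 0 transport kinesins and 2.61% of all genes. In Cenpw the CHR and the CCAAT box shared 1 base. Of the 17 mitotic members called lower in both tissues 12 held the CHR letters (70.6%), and of the other 10 mitotic members 3 did. These are matches of letters, given as a description, and no binding was measured.

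**Figure D2:**
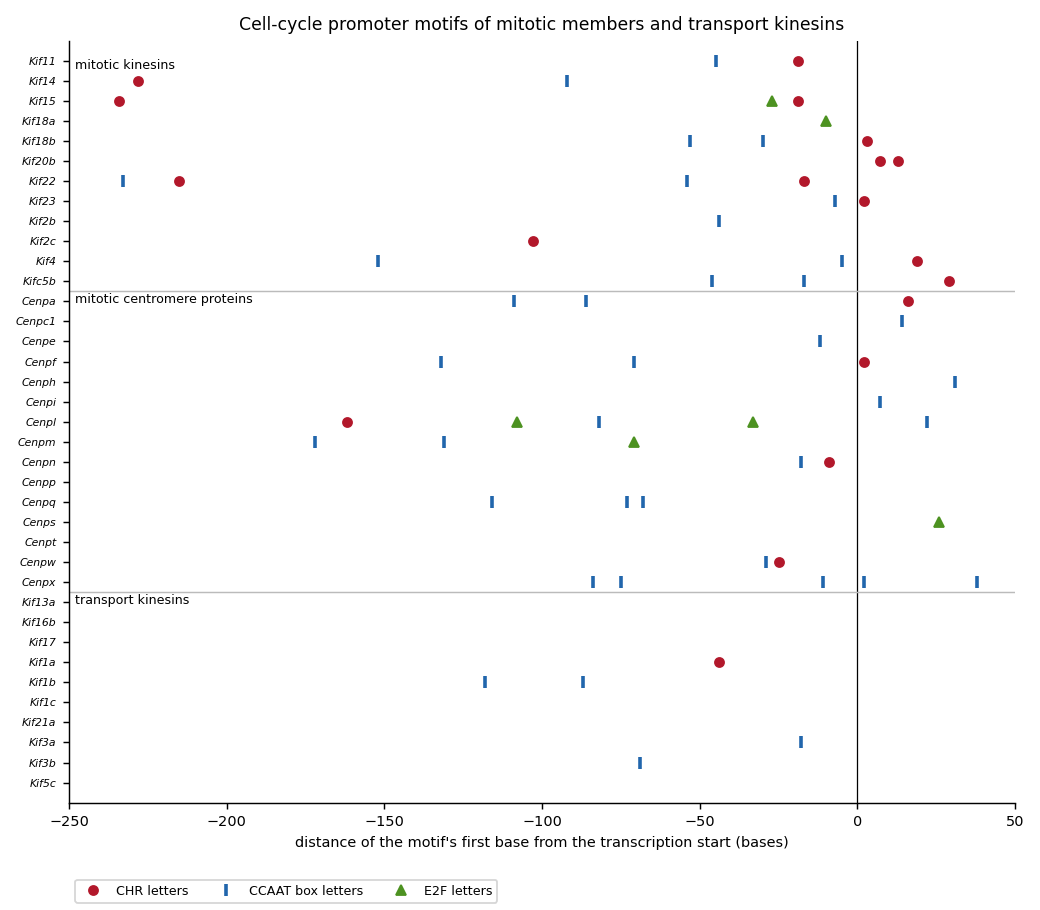
Distance of each motif match's first base from the transcription start (bases; 0 is the start) in the windows of 12 mitotic kinesins, 15 mitotic centromere proteins and 10 transport kinesins, with CHR letters as red circles, CCAAT boxes as blue bars and E2F letters as green triangles. CHR matches gather near the start in 12 of the 27 mitotic members, and 1 transport kinesin (Kif1a) has one; where a gene has several windows the first with a match is drawn.

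In heart, 23 of the 27 mitotic members were called lower in Tk2-/- mice and 0 higher in the deposited values, with a median log2 fold change of -0.74, but 49.0% of all genes were called lower there and 1.99% higher. After quantile normalization 20 mitotic members were called lower and 0 higher, with a median of -0.59, where 17.9% of all genes were called lower and 13.9% higher. All 20 were also among the 23 called in the deposited values, and at an unadjusted p under 0.05 limma gave 0 mitotic members higher on either scale. Of the transport kinesins 9 were called lower and 0 higher in the deposited values (median -0.49), and 1 lower (Kifc3) and 1 higher (Kif1b) after quantile normalization (median 0.00). The Tk2-/- arrays all lay below the Tk2+/+ arrays for 23 mitotic members, as they did for 53.3% of all genes.

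Kif11 read 148, 91.1 and 75.4 in Tk2+/+ heart and 8.52, 13.3 and 7.72 in Tk2-/- heart, which is 9.39% of the wild-type mean. Its log2 fold change was -2.19 (SE 0.22, adjusted p = 2.59e-06) and -1.94 after quantile normalization (SE 0.21, adjusted p = 4.37e-05). Kif23 read 119, 87.8 and 72.0 against 15.2, 13.4 and 12.02, and Kif18b read 72.8, 43.1 and 33.7 against 9.25, 9.78 and 9.10. For these 3 motors every knockout array was far below every wild-type array, and the quantile-normalized log2 fold changes of Kif23 and Kif18b were -1.62 and -1.18. Kif4 and Kif22 followed with -1.07 and -1.06 on the quantile-normalized scale. Kif14, a kinesin of the midbody, and Kif18a, which dampens chromosome movement at the metaphase plate, were called lower in heart (-0.50 and -0.48), and Kifc5b and Kif2b were not called (-0.05 and 0.05). Second probe sets were fitted in the deposited values only, where 49.0% of all genes were called lower in heart. On that scale a second, dim probe set of Kif11 was also called lower in heart (-0.55, adjusted p = 0.00734) but not in muscle (-0.23, adjusted p = 0.384). The second, dim probe set of Kif18b gave 0.12 in heart and 0.01 in muscle without a call, so the falls of Kif18b rest on the probe set with the higher signal.

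Among centromere proteins in heart, Cenpf read 104, 86.5 and 84.6 in Tk2+/+ and 14.8, 39.3 and 10.3 in Tk2-/- mice. The knockout arrays spread from 10.3 to 39.3 without reaching the wild-type range, and the quantile-normalized log2 fold change was -1.31 (SE 0.24, adjusted p = 0.00114). Cenpm, Cenpn and Cenpe fell by 1.21, 1.08 and 1.07 on the same scale. The inner kinetochore scaffold Cenpc1 read 82.3, 64.2 and 54.5 against 24.0, 25.5 and 19.5 and fell by 0.83 (SE 0.08, adjusted p = 2.84e-05). Cenpt, Cenpi and Cenpl fell by 0.78, 0.68 and 0.52. Cenpx, which with Cenps also serves DNA repair at stalled replication forks, was called lower in the deposited values (-0.50) and was 0.18 without a call after quantile normalization; Cenps was -0.42 and 0.02.

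Cenpa in heart depended on the scale. Its signals were 436, 317 and 284 in Tk2+/+ and 198, 219 and 179 in Tk2-/- heart, and the groups did not overlap. The deposited log2 fold change was -0.74 (SE 0.17, adjusted p = 0.00134), yet after quantile normalization it was -0.06 (SE 0.15, adjusted p = 0.784). In muscle the fall was -1.25 and -1.22 on the same pair of scales.

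**Figure D3:**
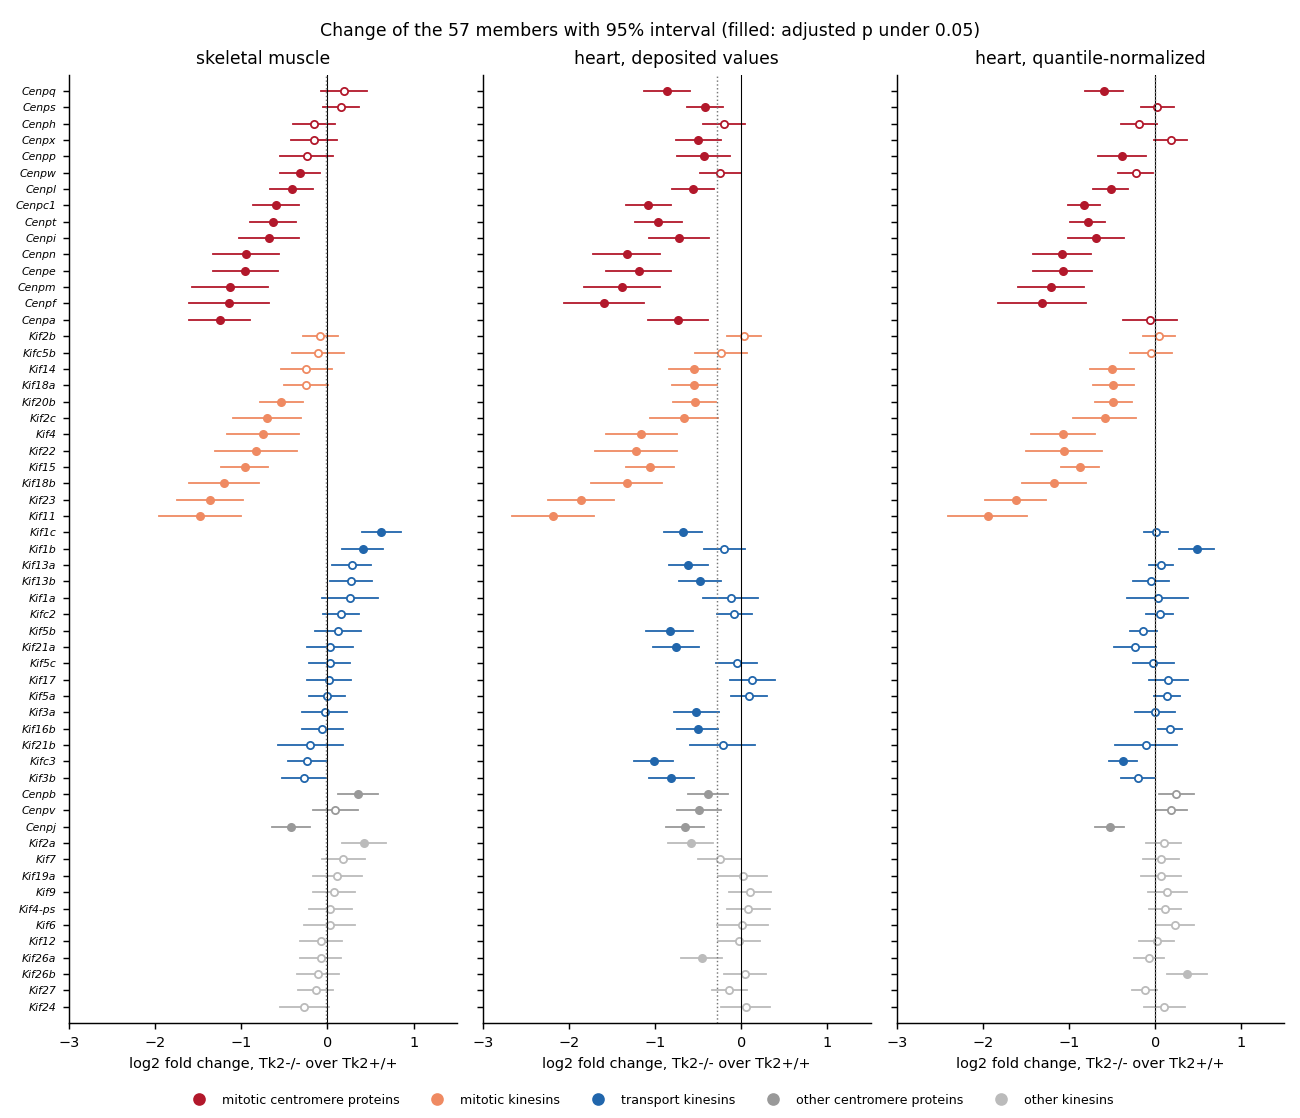
Log2 fold change of Tk2-/- over Tk2+/+ for each of the 57 members with its 95% confidence interval, in muscle, in heart as deposited and in heart after quantile normalization, coloured by class, with filled points for an adjusted p under 0.05 and the dotted line at the median of all genes. Mitotic members are called lower in 18, 23 and 20 cases of 27, and transport kinesins in 0, 9 and 1 of 16.

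The 2 transport kinesins called in muscle were both higher in Tk2-/- mice. Kif1c, which carries vesicles and integrins, read 456, 530 and 444 in Tk2+/+ muscle and 725, 772 and 732 in Tk2-/- muscle, and the groups did not overlap. Its log2 fold change was 0.63 (SE 0.10, adjusted p = 0.000476), and its other probe set also gave 0.63. Kif1b, whose isoforms carry mitochondria and synaptic vesicle precursors, read 1094, 1354 and 1078 against 1357, 1752 and 1594 and rose by 0.41 (SE 0.11, adjusted p = 0.0153). After quantile normalization in muscle 5 transport kinesins were called higher and 0 lower (13.8% and 14.8% of all genes), the others being Kif13a, Kif13b and Kifc2 with 0.21, 0.31 and 0.21, and 19 mitotic members were called lower. Kif5b, the ubiquitous heavy chain of kinesin-1, was not called in muscle: it read 1080, 1348 and 947 against 1295, 1185 and 1160 (0.12, adjusted p = 0.602). Kif3a and Kif3b, the motor pair of kinesin-2, stood at -0.03 and -0.27 without a call, and the neuronal kinesin-1 chain Kif5c at 0.03. Kif21b (-0.20), Kif17 (0.02), Kif21a (0.03), Kif1a (0.26) and the neuronal Kif5a, which read 22.4 to 25.7 in Tk2+/+ and 22.7 to 25.0 in Tk2-/- muscle, were not called in muscle either.

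In heart the deposited signals of Kif5b were 1124, 1030 and 1104 in Tk2+/+ and 617, 677 and 524 in Tk2-/- mice, and those of Kif1c were 609, 570 and 588 against 371, 405 and 318. Neither gene's groups overlapped, and both were called lower (-0.83 and -0.67). Quantile normalization moved them to -0.14 (adjusted p = 0.169) and 0.01 (adjusted p = 0.937). Kif1b, at 584, 577 and 584 against 525, 504 and 489, was -0.20 without a call as deposited and 0.48 (adjusted p = 0.00213) after quantile normalization, so its direction in heart turned with the scale. Kifc3, a minus-end-directed kinesin of cell junctions, was the 1 transport kinesin called lower on both scales in heart, at 266, 237 and 295 against 127, 133 and 110 (deposited -1.02, quantile-normalized -0.37).

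Averaged over the class, the 27 mitotic members were lower on each Tk2-/- array than on any Tk2+/+ array of the same tissue. Their mean of log2(signal + 16) was 6.13, 5.90 and 5.75 in Tk2+/+ muscle and 5.27, 5.39 and 5.26 in Tk2-/- muscle, and 6.25, 5.84 and 5.73 in Tk2+/+ heart and 5.09, 5.14 and 4.99 in Tk2-/- heart. That of the 16 transport kinesins was 6.98 to 7.13 and 7.15 to 7.20 in muscle, and 7.02 to 7.10 and 6.53 to 6.68 in heart, so that the transport kinesins too were lower on the Tk2-/- arrays in heart as deposited, but not in muscle. Among mice of 1 group the mitotic members often shared the highest or lowest array. In Tk2+/+ muscle replicate 1 was the highest of the 3 arrays for 24 of the 27 and replicate 3 the lowest for 22. In Tk2+/+ heart replicate 1 was the highest for 25 and replicate 3 the lowest for 20. The share of all genes that ranked the same way was not counted, and the arrays differed as a whole. Mean signals of Tk2+/+ replicates 1 to 3 were 217, 252 and 202 in muscle and 243, 227 and 239 in heart. Their median signals were 44.15, 41.36 and 40.255 in muscle and 33.255, 34.555 and 29.535 in heart. The same muscle replicate 1 had the highest sum of leucocyte markers (1544 against 1067 and 934, with Ptprc at 419 against 104 and 98.2). Its satellite cell sum was also the highest (1323 against 1027 and 863). Heart replicate 1 had the highest leucocyte sum (1879 against 1500 and 1676). That replicate's satellite cell sum was the lowest (199 against 224 and 240), but most of it was Vcam1 (163 against 173 and 218). The other markers of that list read under 16 on the Tk2+/+ heart arrays. Of the cardiomyocyte markers, Myl7 read 13.3, 580 and 2641 in Tk2+/+ heart replicates 1 to 3. Myl4 read 269, 2418 and 6874 there, and Nppa 705, 2826 and 5742. In Tk2-/- heart replicates 1 to 3 Myl7 read 1966, 144 and 1882. The part of these markers was not tested. In the Tk2-/- groups replicate 2 was most often the highest, for 15 members in muscle and 16 in heart. Mean signals of Tk2-/- replicates 1 to 3 were 245, 246 and 225 in muscle and 154, 168 and 147 in heart. Without the first Tk2+/+ muscle array 13 mitotic members were called lower in muscle, as were 1421 of the 18820 genes (2050 with that array). Without the first Tk2+/+ heart array 22 were called lower in heart, as were 8482 of all genes (9229 with that array).

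The other kinetochore and spindle proteins, a list of 36 measured genes, gave 22 lower and 1 higher in muscle (median -0.59), where 10.9% of all genes were lower and 11.6% higher. In heart 33 were called lower in the deposited values (49.0% of all genes), and 25 lower and 1 higher after quantile normalization (17.9% and 13.9% of all genes; median -0.72). Aurkb, the kinase that corrects wrong attachments, read 166, 114 and 80.6 against 17.9, 31.5 and 24.6 in muscle and fell by 1.71 (adjusted p = 0.000107). Prc1, which holds midzone microtubules together with Kif4, fell by 1.51 in muscle and by 2.08 in heart after quantile normalization. Zwint, an outer kinetochore adaptor that is also abundant in neurons, was the 1 gene called higher in muscle, by 0.58. Sgo2a, a shugoshin that guards cohesion at the centromere, parted the tissues: it read 118, 117 and 82.5 against 25.4, 48.5 and 26.9 in muscle, and 250, 144 and 218 against 251, 216 and 199 in heart. Its muscle change was -1.31 (adjusted p = 0.000196) and its heart change 0.14 (adjusted p = 0.611), or 0.81 (adjusted p = 0.0053) after quantile normalization.

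Adaptors and motor partners of cargo transport, 27 genes, gave 4 lower and 4 higher in muscle (median 0.09), shares near the 10.9% and 11.6% of all genes, and 8 lower and 4 higher after quantile normalization (14.8% and 13.8% of all genes). In heart 22 were lower as deposited (49.0% of all genes), and 6 lower and 4 higher after quantile normalization (17.9% and 13.9%). Trak1 and Trak2, which link kinesin-1 to mitochondria, fell in muscle by 0.73 and 0.63, and in heart by 0.59 and 0.68 after quantile normalization. The dynein light chain Dynll1 fell by 0.98 in muscle, the dynactin subunit Dctn4 rose by 0.54 and the dynein adaptor Hook1 rose by 0.86.

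The members outside both classes differed from gene to gene. Cenpj, a centriole protein named for its place in the centromere protein series, read 40.3, 35.8 and 34.7 against 26.7, 20.2 and 23.8 in muscle and 38.5, 31.2 and 31.1 against 15.3, 17.7 and 13.4 in heart. It was called lower in both (-0.42, adjusted p = 0.00714; quantile-normalized heart -0.53, adjusted p = 0.000322). Cenpb, which binds a repeat of centromeric satellite DNA at all times of the cell cycle, rose by 0.35 in muscle (adjusted p = 0.0292) and was -0.38 in heart as deposited and 0.25 without a call after quantile normalization. Kif2a, a depolymerase used by neurons as well as by spindles, rose by 0.42 in muscle (adjusted p = 0.0203), and its heart value was -0.59 as deposited and 0.10 without a call after quantile normalization. Cenpv, a protein of the chromosome passenger pathway, was 0.09 in muscle, and in heart -0.50 with a call as deposited and 0.19 without one after quantile normalization. Of the 11 other kinesins 1 was called higher and 0 lower in muscle, where 11.6% and 10.9% of all genes were. In heart Kif2a and Kif26a were called lower as deposited (49.0% of all genes), and Kif26b (0.37) was called higher after quantile normalization (13.9% of all genes). As deposited in heart Kif26b was 0.04, and its other probe set, of similar signal, 0.02, neither called. Kif9 and Kif27 read under 19 on all heart arrays. Kif6, Kif7, Kif12, Kif19a, Kif24 and the pseudogene Kif4-ps were called in neither tissue on either scale, with muscle values from -0.27 for Kif24 to 0.19 for Kif7.

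Whether the genotype effect differed between the tissues was tested gene by gene as the muscle log2 fold change minus the heart one. In the deposited values 3 mitotic members and 10 transport kinesins had the higher change in muscle, as 41.3% of all genes did, and 0 members had the lower. After quantile normalization 6.00% of all genes had the higher change in muscle and 4.54% the lower, and among mitotic members 1 had the higher and 2 the lower. Cenpq, an inner kinetochore protein of the same complex as Cenpu, read 52.9, 43.9 and 34.6 against 56.9, 56.3 and 43.2 in muscle and 59.3, 59.8 and 64.7 against 26.0, 30.9 and 23.0 in heart. It differed on both scales (1.05, adjusted p = 0.00033, and 0.84, adjusted p = 0.00402). Cenpa and Cenpx were the others, at -1.15 (adjusted p = 0.00457) and -0.44 (adjusted p = 0.0411) after quantile normalization, where the deposited values were -0.51 and 0.34 without a call. Of the transport kinesins, Kif1c differed on both scales (1.30, adjusted p = 4.36e-05, and 0.51, adjusted p = 0.00526), and Kif16b, which moves early endosomes, turned from 0.45 to -0.34. For Kif11 and Kif23 the difference was 0.50 (95% interval -0.15 to 1.15) and 0.29 (-0.21 to 0.78) after quantile normalization, neither called.

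**Figure D4:**
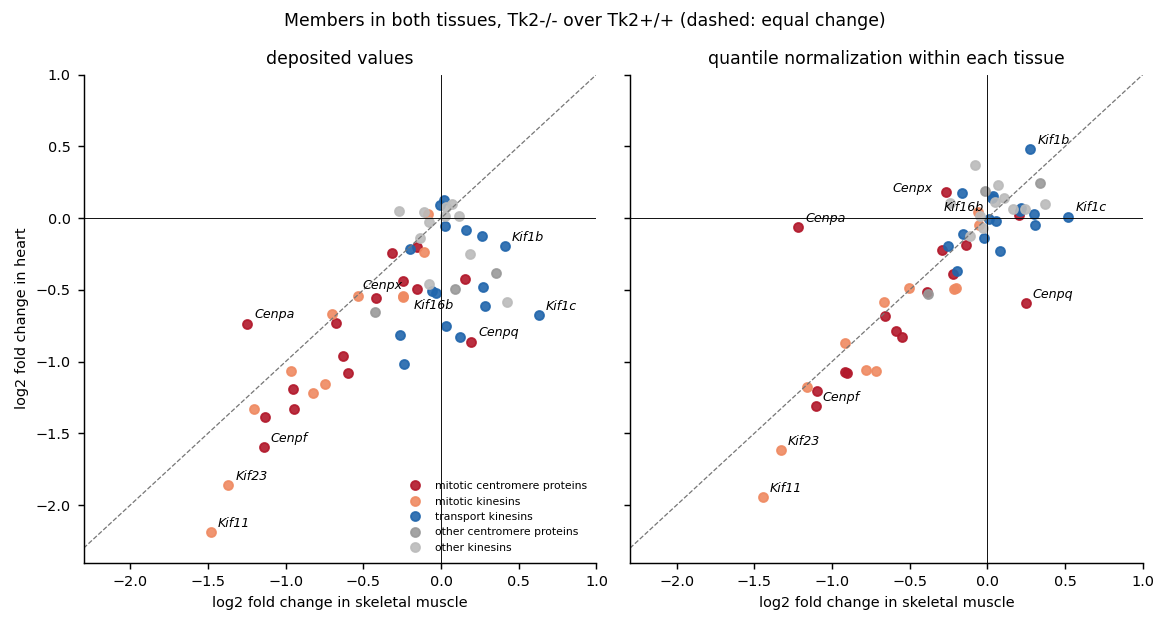
Log2 fold change of Tk2-/- over Tk2+/+ in muscle (horizontal) and heart (vertical) for the 57 members, as deposited and after quantile normalization within each tissue, coloured by class, with the dashed line at equal change. Kif11, Kif23 and Cenpf lie low in both tissues on either scale, Cenpq is low only in heart, Cenpa leaves the line after quantile normalization (-1.22 in muscle, -0.06 in heart), and the transport kinesins move up to around 0 in heart.

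Between the Tk2+/+ tissues 3 mitotic members were higher in muscle and 3 lower, where 30.6% of all genes were called higher in muscle and 18.4% lower. Cenpa was lower in muscle by 1.56 (SE 0.17, adjusted p = 2.21e-06), its heart mean of 345.8 being 3.27 times its muscle mean of 105.8, and Cenpf was lower by 1.01 (adjusted p = 0.00173). In Tk2-/- mice Cenpa stood at 35.0 in muscle and 198 in heart. Kif11, Kif23 and Kif18b did not pass the test between the wild-type tissues (-0.14, -0.10 and 0.13). Of the transport kinesins 5 were higher in muscle and 5 lower. With each tissue quantile-normalized the split moved towards muscle, to 8 mitotic members higher and 2 lower and 9 transport kinesins higher and 2 lower, while 9329 of the 18820 genes were called higher and 2016 lower. Kif1b and Kif1a, a motor best known from axons, were higher in muscle by 0.99 and 0.95, and Kifc3 was lower by 1.33. Kif19a, a motor of cilia, was also higher in muscle, at 59.5, 37.0 and 44.1 against 15.5, 18.8 and 11.3.

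Markers of dividing or non-muscle cells moved with genotype as well, and in tissue RNA fewer cells of a type and less RNA per cell cannot be told apart. In muscle, where 10.9% of all genes were lower, 5 of 7 satellite cell markers were called lower (Myog, Myod1, Vcam1, Pax7 and Calcr), their summed signal being 863 to 1323 in Tk2+/+ and 510 to 813 in Tk2-/- mice, and 4 of 7 fibroblast markers were lower (Lum, Col1a1, Col1a2 and Col3a1), with sums of 11921 to 13673 and 6993 to 8654, and 1 (Pdgfra, 344 to 410 and 467 to 536) was higher. Of 7 leucocyte markers in muscle 0 were lower and 1 (Cd68) higher, with a median of -0.04. In heart all 7 leucocyte markers (sums 1500 to 1879 and 551 to 656), all 7 endothelial markers (7474 to 8905 and 3857 to 4970) and all 7 fibroblast markers (8890 to 10883 and 5160 to 5635) were called lower in the deposited values, as were 49.0% of all genes. After quantile normalization (17.9% of all genes) 6, 4 and 4 of them stayed called lower, and 1 fibroblast marker (Pdgfra) was called higher. The 2 erythroid genes measured, Slc4a1 and Alas2, were lower in heart as deposited (-2.52 and -1.22), and Slc4a1 (-2.12) stayed called after quantile normalization. None of these markers was at 0. Their part in the lower values of the mitotic members was not tested.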

How the data were processed

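Total RNA of 12 tissue samples was hybridised to Affymetrix Mouse Gene 1.1 ST arrays. The deposited values are linear intensities of 35556 probe sets that the authors obtained with PLIER in Expression Console, per the labels; versions and further settings are not given in the sources used here. Probe sets were named through the platform annotation: 21218 carried 1 symbol and 1881 several, and the latter were left out. The probe set with the highest mean signal stood for each of 18820 genes. log2(signal + 16) was fitted with limma 3.58.1 (R 4.3.3) with 1 mean per group, 8 residual degrees of freedom, and Benjamini-Hochberg adjustment over all genes at 0.05, 2-sided. The fit was tested on simulated data. The number of arrays limits the precision. The labels call the replicates biological but do not tie muscle and heart samples to animals. Same-numbered samples did not all deviate together, so the numbers were not used as pairs. Named members were a fixed set plus those with the largest called changes per class and tissue, and other members are named so that each has a value or a call. The members, lists, markers and tests were chosen with earlier results of these data known. Alternatives covered scaling, offset, dim genes (mean signal under 32), weights, blocks, the methods' test and leaving out each array. Muscle and heart of Tk2-/- mice were compared by the same fit. As deposited 12 of the 27 mitotic members were called higher in muscle and 2 lower, and 11 and 1 of the 16 transport kinesins. Of all genes 59.5% were called higher in muscle and 4.55% lower. Promoter letters came from RefSeq; Kif13b, Kif19a, Kif21b, Kif4-ps, Kif5a, Kif5b, Kifc2 and Kifc3 had no window here.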

Additional observations from a re-analysis of the deposited data

Results flagged for a closer look

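For the members named in this paragraph the genotype effect differed between the tissues by the test of the difference itself (muscle log2 fold change minus heart log2 fold change, adjusted p under 0.05). In the deposited values the difference was 1.30 for Kif1c, 1.05 for Cenpq, 1.01 for Kif2a, 0.95 for Kif5b, 0.89 for Kif13a, 0.79 for Kif21a, 0.78 for Kifc3, 0.75 for Kif13b, 0.74 for Cenpb, 0.61 for Kif1b, 0.59 for Cenpv, 0.58 for Cenps, 0.55 for Kif3b, 0.49 for Kif3a, 0.48 for Cenpc1, 0.45 for Kif16b and 0.44 for Kif7. With the arrays of a tissue quantile-normalized it was 0.84 for Cenpq, 0.51 for Kif1c, -0.34 for Kif16b, -0.44 for Cenpx and -1.15 for Cenpa, so that Cenpq and Kif1c passed in the same direction on both scales. The 17 members that passed as deposited are 29.8% of the 57, where 41.3% of all genes had the higher change in muscle. After quantile normalization 6.00% of all genes had the higher change in muscle and 4.54% the lower.

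Among the named partner genes the deposited difference was -1.45 for Sgo2a, 0.77 for Tpx2, 0.71 for Dctn4, 1.06 for Dynll1, 1.22 for Hook1, 1.15 for Mapk8ip3, 0.96 for Rhot1, 0.54 for Trak1 and 0.73 for Trak2, and after quantile normalization it was -2.08 for Sgo2a and 0.50 for Mapk8ip3. As deposited 41.3% of all genes had the higher change in muscle and 1.39% the lower, and after quantile normalization 6.00% and 4.54%.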

How the results depend on the processing

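Mitotic members called lower (18 in muscle, 23 in heart) outnumbered those called higher under every scaling, offset, weighting and block tried. The methods' t-test after Benjamini-Hochberg called 0 mitotic members lower in muscle and 19 in heart. It then called 294 of the 18820 genes lower in muscle and 8042 in heart. At an unadjusted p under 0.05 it gave 18 mitotic members lower in muscle, as limma did, and 1 higher. Unadjusted with a fold of 2, taken on log2(signal + 16), it called 6 and 11 mitotic members lower. Of all genes it then called 329 and 1770 lower. The added 16 understates the fold of genes with low signals. With genes of mean signal under 32 left out, 10 and 13 of the remaining 14 were lower, as were 1877 and 8797 of the 11641 genes kept. Upper-quartile scaling gave 15 lower and 1 higher in heart, and, for transport kinesins, 1 lower in muscle, 1 lower and 5 higher in heart, and 2 differing between tissues. That fit called 2540 of all 18820 genes lower in muscle, and 6768 higher and 2747 lower in heart. Counting all centromere proteins as mitotic gave 1 higher in muscle and 5 differing between tissues. Transport kinesins called higher in muscle numbered 5 after quantile normalization within tissue, 4 over 12 arrays or with median centring, and 1 with an offset of 1 or the methods' adjusted t-test. Of all 18820 genes these 5 settings called 2602, 2580, 2583, 1669 and 366 higher in muscle. The unadjusted t-test with that fold of 2 gave 0 higher (312 of all genes), and array weights gave 1 lower (2606 of all genes). In heart, either quantile normalization gave 1 transport kinesin lower and 1 higher with 2 differing between tissues. Within tissue it called 3363 of all genes lower and 2609 higher in heart, and over 12 arrays 3397 and 2682. Median centring gave 2 higher (2597 of all genes) with 6 differing, and the methods' unadjusted t-test with that fold of 2 gave 1 lower (1770 of all genes). Mitotic members differing between tissues numbered 5 with an offset of 1 or array weights.

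Between the Tk2+/+ tissues, quantile normalization within tissue called 10 mitotic members, upper-quartile scaling 9, and the methods' t-test 2 in both forms. The same test called 4 and 1 transport kinesins. Of all 18820 genes 5762 were called higher in muscle and 3471 lower as deposited, and 9329 and 2016 after quantile normalization within tissue. For the other settings of this comparison, and of the difference between tissues, no count over all genes was taken. Leaving out single arrays gave 13 to 18 mitotic members lower in muscle and 22 to 25 in heart, 1 to 3 transport kinesins higher in muscle, 2 to 6 mitotic members differing between tissues (6 without the first Tk2+/+ muscle array), and between the Tk2+/+ tissues 3 to 11 mitotic members (11 without heart replicate 1, 3 without replicate 3) and 6 to 10 transport kinesins (6 without heart replicate 1). Of the 18 and 23 mitotic calls, 13 and 22 held in all 12 such fits. Those fits called 1359 to 2136 of the 18820 genes lower in muscle and 8322 to 9292 in heart. With the replicate number as a block (replicate block), 17 and 23 mitotic members were lower; correlations of same-numbered deviations between genotypes ran from -0.19 to 0.13, and the labels do not say that a number marks an animal.

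Signs turned as follows, in the order quantile normalization within tissue, over 12 arrays, and upper-quartile scaling. In heart the transport median became 0.0025, 0.0034 and 0.11, Cenpb 0.25, 0.24 and 0.24, Cenpv 0.19, 0.19 and 0.17, Kif13a 0.068, 0.069 and 0.045, Kif1b 0.48, 0.48 and 0.48, and Kif2a 0.097, 0.098 and 0.068. Kif1c became 0.0088 and 0.0093 under the quantile forms, and under upper-quartile scaling alone Kif13b became 0.065, Kif26a 0.074, Kif3a 0.054 and Kif5c 0.28. The difference between tissues became -0.20, -0.20 and -0.087 for Cenpv, -0.20, -0.20 and -0.074 for Kif1b, -0.058, -0.066 and -0.078 for Kif3b, and -0.092 for Kif3a with upper-quartile scaling. The cause was not tested. The methods' t-test gave no value for the difference between tissues, nor did fitting each tissue alone. Signals of 3 mitotic members averaged under 16 in all 4 groups, which limits what their changes can show.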
